A study of Mus musculus with 6 samples.

Results

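Nnat, which encodes neuronatin, and 9 other imprinted genes were followed in the first lumbar segment (L1) of the spinal cord of male SCID mice, a strain with severe combined immunodeficiency that lacks functional T and B cells and accepts human tumour cells. The genes were Nnat, Peg3, Ndn, Meg3, Plagl1, Snrpn, Cdkn1c, Igf2, H19 and Impact. All groups were of this strain and sex, entered the study aged 9 weeks and were sampled 6 weeks after injection, aged 15 weeks. N-inv mice carried Capan-1, an established human pancreatic cancer line, injected into the sciatic nerve of the left side. SC mice carried the same line subcutaneously, and PBS mice received vehicle. Each of the 3 groups had 2 arrays, hybridised with labelled RNA of the cord. The title of each array carries a number of its own, but does not say whether it names an animal. Separate animals are thus not named for the arrays of a group, so p-values measure the spread between these arrays, which may be technical.

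Members were the probe sets whose only annotated symbol was 1 of the 10 genes, which gave 35 probe sets of 45037 in all. They covered 9 of 18193 named genes, and 28 of the 35 passed a filter on dim signal that left 27022 probe sets to test. H19 had no probe set of its own: the annotation gave 1 probe set both as H19 and as Mir675, the microRNA gene inside it. A further 6 probe sets were shared by Snurf and Snrpn, which are made from 1 transcript. These 7 shared probe sets, of which 6 passed the filter, are described separately and are counted in no total of members. The set was picked because Nnat was higher in both N-inv arrays than in all 4 controls, so the N-inv values of Nnat are given as a description with no test.

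Genomic imprinting is the silencing of the maternal or the paternal copy of a gene by DNA methylation marks laid down in the germ line, so that only 1 parental copy is read. Many imprinted genes lie in clusters under a shared control region, and many act on fetal growth, on metabolism or in neurons. Nnat, Peg3, Ndn, Plagl1, Snrpn, Igf2 and Impact are classed as paternally expressed, and Meg3, Cdkn1c and H19 as maternally expressed. Whether the class holds in every cell type of the cord was not tested. Neuronatin is a small membrane proteolipid of the endoplasmic reticulum, related in sequence to the calcium pump regulator phospholamban and abundant in developing brain. The arrays measure total RNA and do not tell the parental copies apart, so imprinting itself was not measured.

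The start regions of Nnat and Ndn are shown because both genes carry the same 8 letters at nearly the same distance from the start. Each is the 250 bases upstream of the annotated start, 5′ to 3′ on the gene's plus strand, from RefSeq on GRCm38.p6: chr2:157559828-157560077 for Nnat and chr7:62348027-62348276 for Ndn. Capitals mark CGCATGCG, a sequence that reads the same on both strands and forms the core of the motif of the transcription factor NRF1.
Nnat: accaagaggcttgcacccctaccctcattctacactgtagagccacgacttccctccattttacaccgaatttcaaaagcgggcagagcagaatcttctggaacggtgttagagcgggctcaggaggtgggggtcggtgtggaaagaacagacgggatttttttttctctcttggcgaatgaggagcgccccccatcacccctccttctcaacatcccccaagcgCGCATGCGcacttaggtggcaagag
Ndn: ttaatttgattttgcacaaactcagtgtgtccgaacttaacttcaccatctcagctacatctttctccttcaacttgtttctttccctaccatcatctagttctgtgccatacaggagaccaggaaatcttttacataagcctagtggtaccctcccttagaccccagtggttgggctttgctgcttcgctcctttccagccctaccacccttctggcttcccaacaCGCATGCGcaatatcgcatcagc
The match began 25 bases before the Nnat start and 23 bases before the Ndn start. Of the 7 members with an entry in the promoter table, 3 held the letters within 250 bases of a start, namely Nnat, Ndn and Snrpn (3 of its 4 starts). Of the 27025 genes with an entry, 1.747% held it in at least 1 such window. The letters were chosen after the sequences had been read, so the count is a description, and a match is not evidence of binding. The Nnat window held 12 CG pairs, and 33.49% of all windows held at least as many. Per RefSeq, Nnat lies within the span of Blcap on chromosome 2, and Blcap is therefore the neighbour against which its level was set.

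The second sequence of interest belongs to the shared H19 probe set. Mir675 lies within H19 on the minus strand of chromosome 7, and the RefSeq mature forms are shown with bases 2 to 8, the seed that pairs with target RNA, in capitals: the 5p arm at chr7:142577112-142577133 and the 3p arm at chr7:142577078-142577099 (GRCm38.p6).
mmu-miR-675-5p: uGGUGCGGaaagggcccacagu
mmu-miR-675-3p: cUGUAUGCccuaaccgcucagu
The 2 arms have different seeds. The arrays detect the long host RNA and not the mature microRNA, so no level of either arm was measured.

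Before the results, the arrays were checked against their labels. All 8 Hox genes of the lumbar cord list, all 10 neuron markers and all 7 oligodendrocyte markers with a probe set passed the filter. Gfap, the intermediate filament of astrocytes named by the study's subject, was 20515 and 19208 in N-inv, 6665 and 7927 in PBS, and 4640 and 15375 in SC. Xist, the RNA of the inactive X chromosome, was 13065 in SC replicate 2 and at most 229 in the other 5 arrays, although all mice were labelled male. Eif2s3y, a Y-linked gene, was 1344 in SC replicate 1, 3152 in SC replicate 2 and between 2369 and 2651 in PBS and N-inv. SC replicate 2 thus had the highest reading of both genes, and the cause was not tested. The SC arrays also correlated least with each other (0.963, against 0.982 and 0.983 for the PBS and N-inv pairs) and had the highest 3' to 5' ratios of the Actb control probes (3.81 and 4.70, against 3.05 to 3.57). Many results that rest on the SC group are therefore given without SC replicate 2 as well, or with each SC array left out. Leaving it out moved the median difference of all tested probe sets from 0.05 to 0.12 in N-inv against SC and from -0.02 to -0.10 in SC against PBS.

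Nnat, the gene whose values chose the set, is given first. Its single probe set (1423506_a_at) read, in scaled intensity, 1343 and 1591 for PBS, 1271 and 1172 for SC, but 2983 and 2875 for N-inv. Both N-inv arrays lay far above all 4 controls, and in ratio the N-inv pair differed from each other by less than either control pair. The means were 1467 ± 175 (SD, n = 2) in PBS, 1221 ± 70.0 (SD, n = 2) in SC and 2929 ± 76.1 (SD, n = 2) in N-inv. N-inv was thus 2.00 times PBS and 2.40 times SC, or 0.99 and 1.25 on the log2 scale used for the fit. These are the values that chose the set. Leaving out any single array kept the first difference between 0.87 and 1.11 and the second between 1.19 and 1.30.

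The comparison of SC with PBS was not used in the choice. Both SC arrays of Nnat lay below both PBS arrays, with a log2 difference of -0.26 ± 0.165 (SE), which did not pass limma's test (adjusted p = 0.770). It was -0.20 without SC replicate 2. The order of Nnat levels was therefore N-inv, PBS, SC, with the last 2 not told apart by the test. Nnat had no second probe set to set beside the first, so nothing here separates the gene from the behaviour of that probe set.

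**Figure D1:**
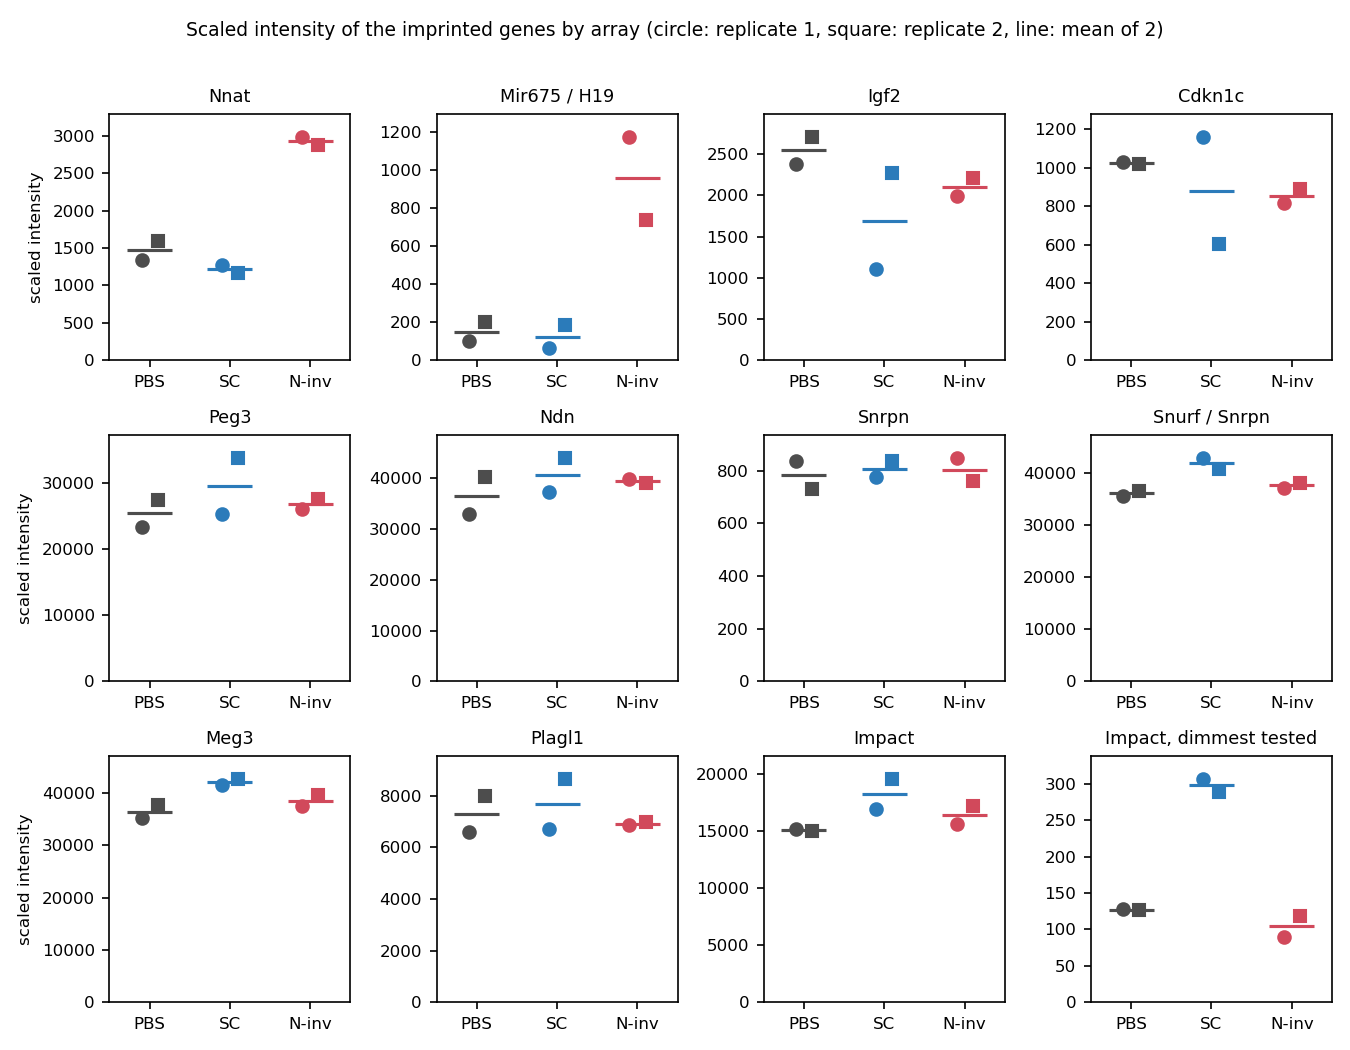
Scaled intensity (linear axes from 0) of the brightest probe set of each imprinted gene and of the dimmest tested Impact probe set in PBS, SC and N-inv arrays. Circles are replicate 1, squares replicate 2 and lines the mean of both. Nnat and the shared Mir675 and H19 probe set stand above all controls in N-inv, the dimmest Impact probe set stands high in SC, and the groups lie closer together in the remaining panels.

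The share of all probe sets with such a pattern was not small. Both N-inv arrays lay above all 4 controls in 9.1% of the 27022 probe sets tested and below all 4 in 4.63%. Among the 28 member probe sets 2 lay above (Nnat and 1 of Meg3) and 2 below (1 of Ndn and 1 of Impact). The rule used this pattern for Nnat, so nothing is read from its inclusion.

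Blcap, the maternally expressed gene around Nnat, read 6439 and 6919 in PBS, 6982 and 7107 in N-inv, with 6816 and 7091 in SC. Its arrays lay close together in all groups, and N-inv differed from PBS by 0.08 and from SC by 0.02 (log2). The 2 genes of the cluster therefore showed log2 differences of unlike size in N-inv, although the difference between them was not tested.

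Marker genes of several cell types also stood higher in N-inv, and their part in the Nnat values was not tested. The summed intensity of 8 microglia markers was 31048 and 26241 in N-inv and between 17454 and 20333 in the 4 controls. That of 8 astrocyte markers was 209647 and 211874 in N-inv and between 158279 and 195658 in controls. The sums of the oligodendrocyte, endothelial and skeletal muscle lists lay above all controls too, so that 5 of the 12 marker lists did. The oligodendrocyte sums cleared the controls narrowly, at 198531 and 201101 in N-inv against 184863 to 196530. By gene, 4 oligodendrocyte markers were higher and 3 lower in N-inv against PBS, with a median of 0.03. Of the 6 muscle markers only 1 passed the filter. Those of neurons (10 of 10 markers above the filter; 255586 to 266445 in N-inv, 235062 to 274039 in controls) and of motor and preganglionic neurons (9122 to 11123 in N-inv, 6898 to 9512 in controls) overlapped. In bulk tissue more cells of a type and more RNA per cell cannot be told apart.

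The genes whose pattern over the 6 arrays was most like that of Nnat were Crip2, Tmem60, Tstd3, Cacna1a, Pdlim7, Myd88, Morn2 and Bcl7b, with Pearson correlations from 0.991 to 0.984 on the log2 scale (n = 6 arrays). Each point is an array and the arrays share their groups, so these are descriptions, and of 22567 probe sets with 1 symbol 255 (1.13%) exceeded 0.9. Crip2, a LIM domain protein, read 1996 and 2085 in PBS, 3220 and 3003 in N-inv, with 1831 and 1871 in SC. Pdlim7, another LIM domain protein that binds the actin cytoskeleton, read 1607 and 1799 in PBS, 2451 and 2466 in N-inv, with 1649 and 1668 in SC. Myd88, the adaptor of Toll-like receptors, read 338 and 405 in PBS, 553 and 593 in N-inv, with 360 and 333 in SC. All 3 were higher in both N-inv arrays than in every control, as were 9.1% of all probe sets tested. Tmem60, a membrane protein, had the same order within a narrow range of 2835 to 3006 over all 6 arrays. These genes were picked for likeness to Nnat, itself chosen for high N-inv arrays, so nothing is read from this order.

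The most opposite genes were Cd47, Kcnj13, Rbm12b2 and Zfand3, with correlations from -0.995 to -0.977. Cd47, the surface protein that signals against phagocytosis, read 6129 and 5755 in PBS, 5061 and 5131 in N-inv, with 6207 and 6254 in SC. Kcnj13, an inward rectifier potassium channel, read 304 and 269 in PBS, 108 and 90.0 in N-inv, with 343 and 329 in SC. In both genes the N-inv arrays lay below every control, as in 4.63% of all probe sets tested. The genes were picked as opposite to Nnat, so nothing is read from this either.

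**Figure D2:**
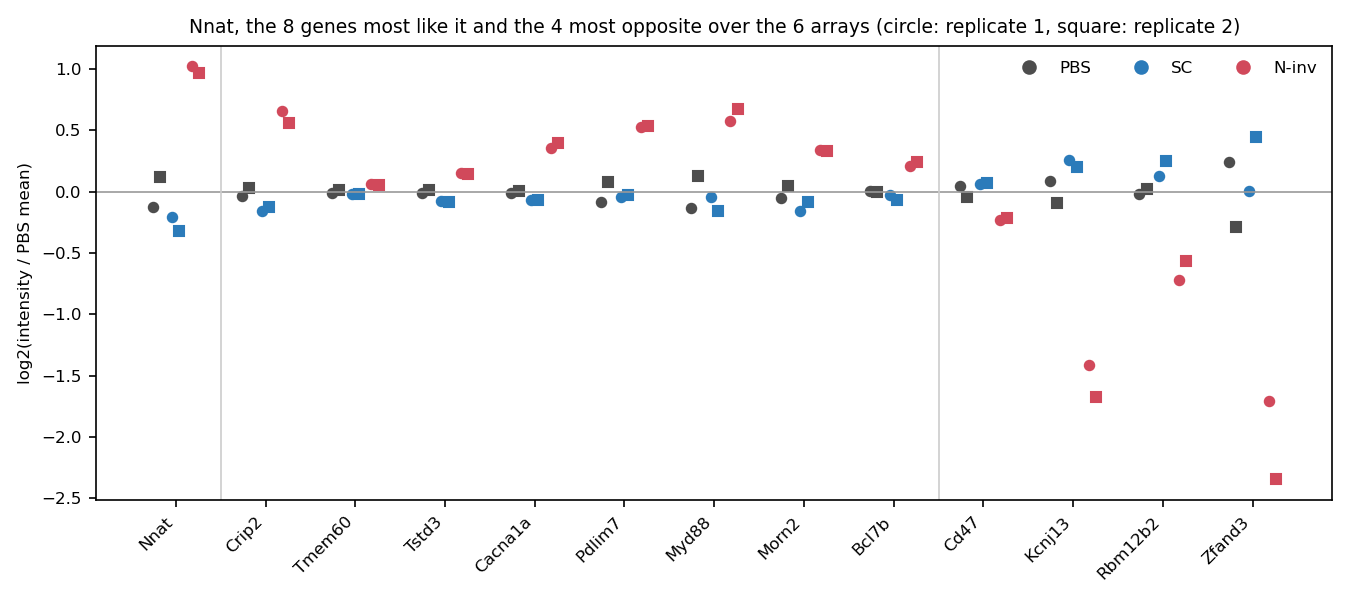
Log2 of scaled intensity over the PBS mean for Nnat, the 8 genes most like it and the 4 most opposite, by array, coloured by group. The N-inv points of Nnat lie highest, those of the 8 genes above 0, and those of the 4 opposite genes below 0.

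Counts over all members give the frame for the other genes. No probe set of the whole array passed limma's test at an adjusted p of 0.05 in any of the 3 comparisons (0% of 27022 in each), and accordingly no member did. At an unadjusted p under 0.05, N-inv against PBS held 613 higher probe sets (2.27%) and 476 lower ones (1.76%), and Nnat was the only member among them; its values chose the set, so nothing is read from this. In N-inv against SC 5.95% were higher and 2.95% lower, with Nnat among the first and 1 Impact probe set among the second. In SC against PBS 2.72% were higher and 5.16% lower, with that Impact probe set as the only member; it passed the filter only through its SC arrays, so nothing is read from it either.

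Groups whose arrays did not overlap were common among all probe sets. In N-inv against PBS 7 of 28 member probe sets lay wholly higher (21.7% of all) and 4 wholly lower (14.6% of all). In N-inv against SC the counts were 4 higher (23.7% of all) and 4 lower (13.3% of all). Nnat is among the higher ones in both, through the values that chose it. Without Nnat 6 of 27 were higher in N-inv against PBS and 3 of 27 in N-inv against SC. In SC against PBS the counts over the 28 were 8 higher (14.2% of all) and 2 lower (20.2% of all), the 2 lower being Nnat and Igf2. A log2 difference above 0 was found for 21 of the 28 in N-inv against PBS (55.4% of all), 11 in N-inv against SC (58% of all) and 21 in SC against PBS (46% of all). Without Nnat the counts were 20 of 27 in N-inv against PBS and 10 of 27 in N-inv against SC. Without SC replicate 2 the counts over the 28 were 17 in N-inv against SC (65.6% of all) and 19 in SC against PBS (36.8% of all). Of the 28 probe sets 11 are those of Meg3, and the dimmest of Impact passed the filter only through its SC arrays. The median log2 difference over the 9 genes, each by its brightest probe set, was 0.08, -0.04 and 0.07 in the order given, beside 0.02, 0.05 and -0.02 over all probe sets. Without SC replicate 2 the last 2 medians over the 9 genes were 0.05 and 0.0005.

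**Figure D3:**
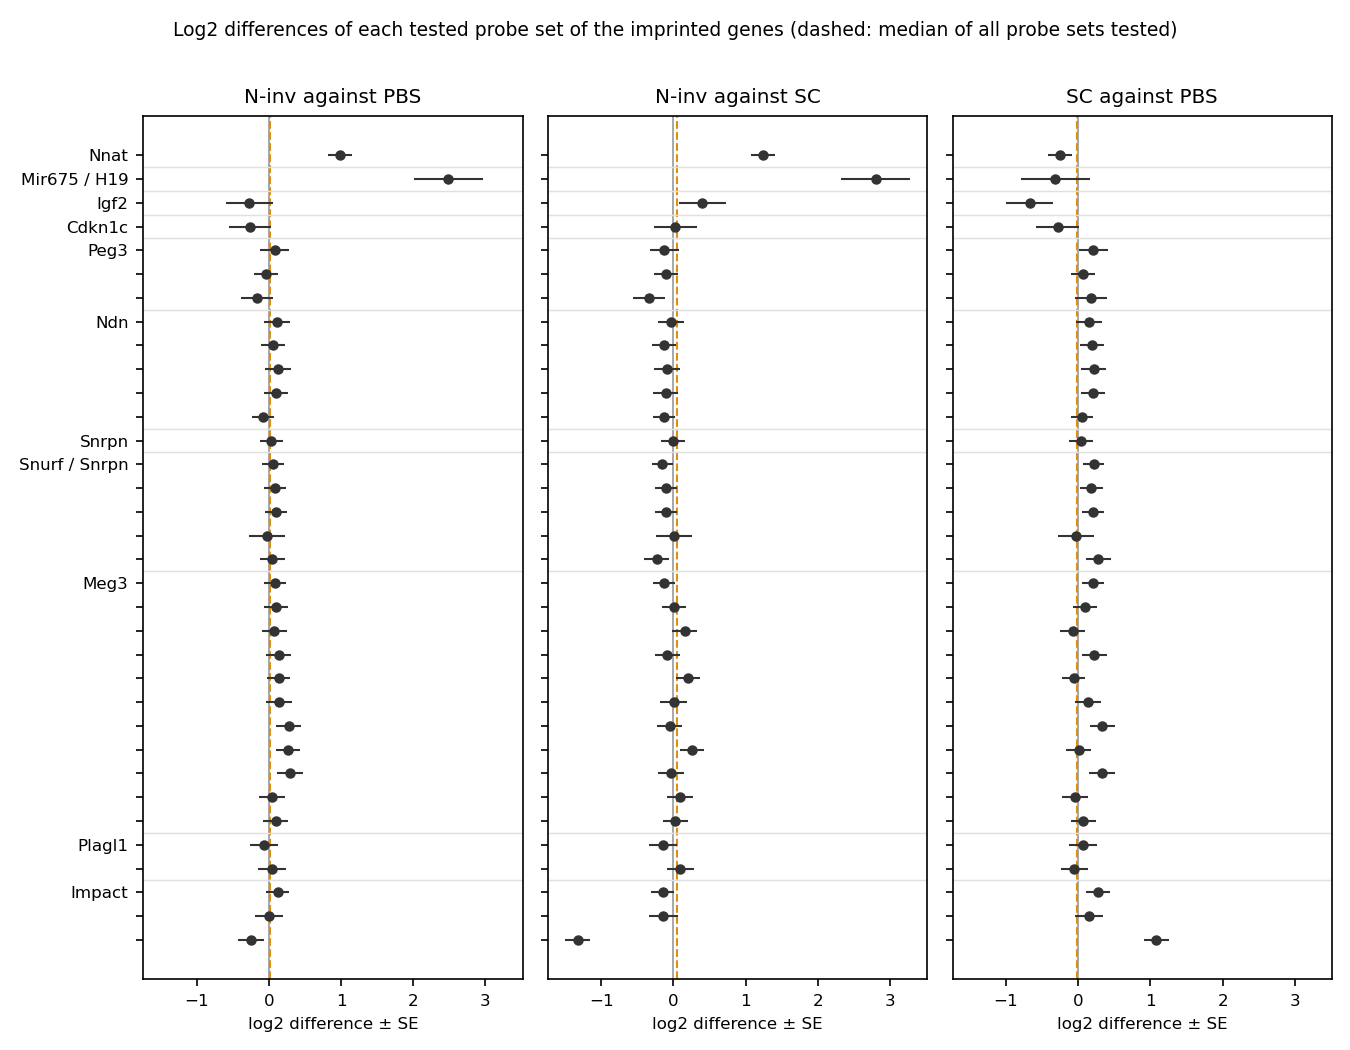
Log2 difference ± SE (limma, n = 2 arrays a group) of each tested probe set, grouped by gene and ordered by brightness within it, in the 3 comparisons. The dashed line is the median of all 27022 probe sets tested. Nnat at 0.99 and 1.25, the shared Mir675 and H19 probe set at 2.49 and 2.80, and the dimmest Impact probe set at -1.32 and 1.08 stand apart from the rest.

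The H19 RNA, an abundant fetal noncoding transcript that is largely silent in adult tissue outside muscle, was read by the probe set shared with Mir675 (1448194_a_at). It read 104 and 200 in PBS, 1174 and 739 in N-inv, with 62.8 and 188 in SC. Both N-inv arrays lay well above the 4 controls, and the controls themselves spread from 62.8 to 200. The log2 difference was 2.49 ± 0.475 (SE) against PBS and 2.80 ± 0.475 against SC. SC against PBS was -0.31, or -0.95 without SC replicate 2 and 0.32 without SC replicate 1, and N-inv against SC was 3.44 without SC replicate 2. The probe set passed the filter on mean intensity only because of the N-inv arrays, since both control means (152 ± 67.7 and 125 ± 88.7, SD, n = 2) lay below the cutoff of 155, so these differences are a description with no test. Its correlation with Nnat over the 6 arrays was 0.931, and 1.13% of probe sets with 1 symbol exceeded 0.9. Nnat was chosen, and this probe set passed the filter, through high N-inv arrays, so nothing is read from that correlation. The brightest probe sets of the other 8 genes and of Snurf with Snrpn correlated with Nnat between -0.38 and 0.17.

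Skeletal muscle is a tissue known to express H19, so its markers are given beside this result. The sum of 6 muscle markers was 669 and 1020 in N-inv, 512 and 654 in PBS, and 533 and 433 in SC. Of these markers only Acta1 passed the filter, while Ckm, Myh4, Tnnt3, Myh1 and Myl1 did not. With most of these markers below the filter the sum rests on dim signal, so nothing is read from its order between arrays. The part of muscle RNA in the H19 values was not tested.

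Igf2, the fetal insulin-like growth factor that shares its cluster with H19 and is made in adult cord mainly by the meninges and vessels, read 2382 and 2711 in PBS, 1993 and 2218 in N-inv, with 1104 and 2273 in SC. Both groups with Capan-1 cells lay below PBS, without overlap, and SC replicate 1 was the lowest. The log2 differences were -0.27 for N-inv against PBS, 0.40 for N-inv against SC and -0.67 ± 0.325 (SE) for SC against PBS (limma adjusted p = 0.688). SC replicate 1 decided the last 2: they became -0.11 and -0.16 in its absence, but 0.91 and -1.18 in that of SC replicate 2. The second Igf2 probe set lay below the filter at 15.8 to 110. The summed meningeal fibroblast markers overlapped between groups (21807 and 24368 in N-inv, 20341 and 26261 in PBS, 22389 and 20786 in SC).

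Igf2 was not called in N-inv against PBS, and the H19 difference was a description with no test, so the 2 were not compared. Of the insulin-like growth factor list of 18 genes 14 were tested: 5 were higher and 9 lower in N-inv against PBS, with a median of -0.08. In N-inv against SC 7 were higher and 7 lower, and in SC against PBS likewise. None was called after adjustment. Igfbp5, a binding protein that holds the growth factors in the matrix, read 2230 and 2434 in PBS, 3732 and 3329 in N-inv, with 2017 and 1087 in SC. Its N-inv arrays lay above all controls, with a log2 difference of 1.24 against SC (limma adjusted p = 0.449). Igfbp6, a binding protein with preference for Igf2, differed by -0.65 against SC and Igf2bp3, which binds Igf2 messenger RNA, by -1.43 (limma adjusted p = 0.488 and 0.546). Igfbp4 read 3239 and 4341 in PBS against 2170 and 1912 in SC, which is -0.87 on the log2 scale (limma adjusted p = 0.564). With SC replicate 2 left out, the differences were 0.80 for Igfbp5, -0.68 for Igfbp6, -1.91 for Igf2bp3 and -0.78 for Igfbp4. Of the list 8 genes were then higher and 6 lower in N-inv against SC, and in SC against PBS 3 genes of the list were higher and 11 lower. The receptors gave smaller differences: Igf1r was 0.27 and Igf2r, which removes Igf2 from the cell surface, -0.37 in N-inv against PBS.

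Cdkn1c, the maternally expressed inhibitor of cyclin-dependent kinases known as p57, read 1031 and 1019 in PBS, 816 and 890 in N-inv, with 1159 and 602 in SC. The PBS pair was nearly identical, N-inv lay below both, and the SC arrays lay on either side of all others. The log2 differences were -0.26 for N-inv against PBS, 0.03 for N-inv against SC and -0.28 ± 0.294 (SE) for SC against PBS (limma adjusted p = 0.867). The last 2 became -0.43 and 0.17 with SC replicate 2 left out, but 0.48 and -0.74 with SC replicate 1 left out, so the SC comparisons of Cdkn1c have no settled direction.

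Of the neighbours of Cdkn1c in its cluster, Tssc4 stood out in both N-inv comparisons. It read 1696 and 1548 in PBS, 2605 and 2277 in N-inv, with 1750 and 1898 in SC. Its N-inv arrays lay above all controls, with log2 differences of 0.58 against PBS and 0.41 against SC (limma adjusted p = 1.0 and 0.546). Osbpl5, an oxysterol-binding protein of the same cluster, was 0.39 higher in N-inv than in SC (limma adjusted p = 0.558). Kcnq1ot1, the noncoding RNA that silences the cluster on the paternal copy, differed by -0.10 in N-inv against PBS, and by 0.01 in N-inv against SC and -0.11 in SC against PBS. The last 2 turned, without SC replicate 2, to -0.19 and 0.09, so they have no settled direction. For Tssc4 and Osbpl5 the N-inv against SC differences were then 0.47 and 0.35. Among the 14 tested genes of kinase inhibitors and G1 cyclins, 6 were higher and 8 lower in N-inv against PBS. Cdkn2b, another inhibitor, read 410 and 357 in PBS, 202 and 240 in N-inv, with 242 and 321 in SC, a log2 difference of -0.73 against PBS (limma adjusted p = 1.0).

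Peg3, a zinc finger protein read from the paternal copy, gave 23340 and 27339 in PBS, 26071 and 27452 in N-inv, with 25270 and 33717 in SC, at its brightest probe set. The groups overlapped throughout. Of its 5 probe sets 3 were tested, and their log2 differences ran from -0.16 to 0.08 in N-inv against PBS, from -0.34 to -0.10 in N-inv against SC and from 0.07 to 0.21 in SC against PBS. Usp29, its neighbour, differed by -0.01 in N-inv against PBS and by 0.14 in SC against PBS, or -0.04 without SC replicate 2. Without SC replicate 2 the brightest probe set differed by 0.08 in N-inv against SC and by 0.0005 in SC against PBS. The other 2 Peg3 probe sets were dim and read at most 49.8.

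Ndn encodes necdin, a growth suppressor of neurons from the MAGE family. Its brightest probe set read 32967 and 40280 in PBS, 39967 and 39179 in N-inv, with 37381 and 44053 in SC, again with overlap. Of 8 probe sets 5 were tested. In N-inv against PBS 4 were higher and 1 lower, from -0.09 to 0.13, with 2 higher and 3 lower after quantile normalization. The lower one (1415923_at) read 19119 and 18918 in PBS, 18670 and 17195 in N-inv, with 19313 and 19988 in SC. Both its N-inv arrays lay below all controls by a small margin, and against PBS this was opposite to the other tested Ndn probe sets. In N-inv against SC all 5 were lower, from -0.14 to -0.04, and all 5 after quantile normalization. Without SC replicate 2 the counts in N-inv against SC were 2 higher and 3 lower. In SC against PBS all 5 were higher, by 0.05 to 0.21, and 4 of the 5 after quantile normalization. Without SC replicate 2 the brightest differed by 0.08 in N-inv against SC and by 0.04 in SC against PBS.

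Snrpn, which encodes a core protein of the spliceosome made mostly in neurons, lies in the cluster of Ndn. Its own probe set read 837 and 730 in PBS, 849 and 759 in N-inv, with 777 and 836 in SC, with log2 differences of at most 0.04 in size, or 0.05 without SC replicate 2, when that of SC against PBS turned from 0.04 to -0.0080. The brightest probe set shared with Snurf read 35579 and 36457 in PBS, 37132 and 38046 in N-inv, with 42812 and 40718 in SC. Its SC arrays lay above the other 4, by 0.21 ± 0.150 (SE) against PBS (limma adjusted p = 0.791) and by 0.25 without SC replicate 2. Magel2, a neighbour from the same protein family as Ndn, read 556 and 452 in PBS against 725 and 578 in SC, which is 0.35 on the log2 scale (limma adjusted p = 0.720). Ube3a, the ubiquitin ligase at the maternal side of the cluster, differed by 0.12 in N-inv against PBS and by 0.03 in SC against PBS. Without SC replicate 2 the SC difference was 0.51 for Magel2 and turned to -0.06 for Ube3a. Of 10 tested genes of the spliceosome core 8 were higher and 2 lower in N-inv against PBS (median 0.04), and of 7 of the MAGE family 6 were higher and 1 lower (median 0.12), with none called.

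Meg3, a long noncoding RNA from the maternal copy that is abundant in neurons, had 11 probe sets, and all 11 were tested. The brightest read 35136 and 37629 in PBS, 37399 and 39532 in N-inv, with 41501 and 42647 in SC. In N-inv against PBS all 11 were higher, by 0.05 to 0.29 with a median of 0.14, and 8 of the 11 were higher after quantile normalization. The 11 probe sets read 1 gene and are not replicates. In N-inv against SC 7 were higher and 4 lower (8 and 3 without SC replicate 2), and with the values as deposited 4 were higher and 7 lower. In SC against PBS 8 were higher and 3 lower, and without SC replicate 2 the counts were 7 and 4.

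One Meg3 probe set (1428765_at) set N-inv apart from all controls, at 6710 and 7728 in PBS, 8050 and 9260 in N-inv, with 7183 and 7270 in SC. Its log2 difference was 0.26 ± 0.167 (SE) against each control group, and neither passed the test (limma adjusted p = 1.0 and 0.704). The other genes of the cluster differed in direction: Dlk1, the paternally expressed Notch ligand homologue, by 0.04, Rian by -0.26 and Mirg by -0.07 in N-inv against PBS. Rian, a noncoding RNA read in tandem with Meg3, read 6040 and 6889 in PBS, 5105 and 5678 in N-inv, with 5441 and 4689 in SC. The N-inv and SC arrays of Rian overlapped with each other and lay below both PBS arrays.

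Plagl1, a zinc finger factor described as a hub of imprinted gene expression, read 6604 and 8003 in PBS, 6872 and 6976 in N-inv, with 6726 and 8654 in SC. The N-inv arrays lay inside the range of the PBS arrays. Of 3 probe sets 2 were tested, with log2 differences of -0.07 and 0.04 in N-inv against PBS and 0.07 and -0.05 in SC against PBS. Without SC replicate 2 the last pair turned to -0.11 and 0.02.

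Impact inhibits Gcn2, the kinase that senses amino acid shortage, and is abundant in neurons. Its brightest probe set read 15151 and 14981 in PBS, 15654 and 17227 in N-inv, with 16933 and 19578 in SC. The SC arrays lay above the PBS arrays by 0.27 ± 0.163 (SE) on the log2 scale (limma adjusted p = 0.748), and N-inv lay between, overlapping SC. It was 0.17 without SC replicate 2. A second probe set (1446750_at) overlapped between groups, with 0.01 in N-inv against PBS and 0.15 in SC against PBS.

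The third and dimmest Impact probe set (1446751_s_at) gave a different picture. It read 128 and 127 in PBS, 89.6 and 119 in N-inv, with 307 and 289 in SC. Both SC arrays lay above the other 4, with a mean 2.34 times that of PBS, and N-inv lay below PBS. The log2 difference was 1.08 ± 0.174 (SE) for SC against PBS and -1.32 for N-inv against SC. Both kept their size with SC replicate 2 left out, at 1.12 and -1.36. The probe set lay at percentile 42.7 of mean intensity and passed the filter only through the SC arrays, because both other means (127 ± 0.9 and 104 ± 20.7, SD, n = 2) were under the cutoff, so its SC differences are a description with no test. The brightest and the second Impact probe sets were higher in SC than in PBS with both SC arrays. Without SC replicate 2 their differences were 0.17 and -0.0010.

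A list around Gcn2 and Impact also held the kinases Eif2ak1, Eif2ak2 and Eif2ak3, so its counts are not of the Gcn2 pathway alone. Of its 13 tested genes 11 were higher and 2 lower in N-inv against PBS (median 0.06). In SC against PBS 8 were higher and 5 lower (4 and 9 without SC replicate 2). Eif2ak4, which encodes Gcn2, differed by 0.04 and 0.10 in these comparisons, and Atf4, the transcription factor at the end of the Gcn2 pathway, by 0.06 and 0.04. Their SC differences turned to -0.18 and -0.37 without SC replicate 2. Eif2ak2, the kinase that senses double-stranded RNA, differed by -0.54 in N-inv against PBS (limma adjusted p = 1.0). No gene of the list was called after adjustment.

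Genes of calcium handling in the endoplasmic reticulum, where neuronatin resides, were read as the pathway around Nnat. Of 20 tested genes 15 were higher and 5 lower in N-inv against PBS, with a median of 0.04 beside 0.02 over all probe sets. In N-inv against SC 14 were higher and 6 lower, and in SC against PBS 9 were higher and 11 lower. Atp2a2, the calcium pump of the reticulum, read 31269 and 34488 in PBS, 33617 and 35984 in N-inv, with 33904 and 40508 in SC, with overlap between groups. Orai3, a store-operated calcium channel of the cell surface, read 419 and 448 in PBS, 304 and 333 in N-inv, with 251 and 196 in SC. Its 3 groups did not overlap, with a log2 difference of -0.89 for SC against PBS (limma adjusted p = 0.518). Casq1, a calcium store protein of muscle, differed by -0.73 in N-inv against SC (limma adjusted p = 0.501). With SC replicate 2 left out, the Orai3 and Casq1 differences were -0.73 and -0.46, and of the list 16 genes were higher and 4 lower in N-inv against SC, and 6 higher and 14 lower in SC against PBS.

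The wider list of imprinted genes was used to place the members among their kind. Of 56 other imprinted genes 47 had a probe set and 32 were tested by their brightest. In N-inv against PBS 21 were higher and 11 lower, with a median of 0.06. None of these 32 had a difference as large as that of Nnat in either N-inv comparison, a description since Nnat was chosen for it. In SC against PBS 15 were higher and 17 lower, with a median of -0.06, and without SC replicate 2 the counts were 11 and 21. None was called after adjustment in any comparison.

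At an unadjusted limma p under 0.05, 1 of the 32 was higher in N-inv against PBS, 4 were higher in N-inv against SC and 3 were lower in SC against PBS, with none in the opposite directions. Of all probe sets 2.27%, 5.95% and 5.16% met these criteria. The gene with the smallest p in both comparisons with SC was Gatm, which makes the precursor of creatine and whose imprinting is known from the placenta. It read 6939 and 6886 in PBS, 7024 and 7118 in N-inv, with 4597 and 2909 in SC. The SC arrays were low, with log2 differences of -0.91 for SC against PBS and 0.95 for N-inv against SC (limma adjusted p = 0.518 and 0.449), and the other 4 arrays lay between 6886 and 7118. These differences were -0.59 and 0.62 without SC replicate 2. H13, a signal peptide peptidase, read 888 and 803 in PBS, 1222 and 1031 in N-inv, with 699 and 760 in SC, and was 0.61 higher in N-inv than in SC (limma adjusted p = 0.464), or 0.66 without SC replicate 2. Mest, a paternally expressed hydrolase, read 1094 and 1029 in PBS, 926 and 905 in N-inv, with 772 and 774 in SC, with a log2 difference of -0.44 for SC against PBS (limma adjusted p = 0.587). The 3 Mest groups did not overlap, and without SC replicate 2 the difference was again -0.44.

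**Figure D4:**
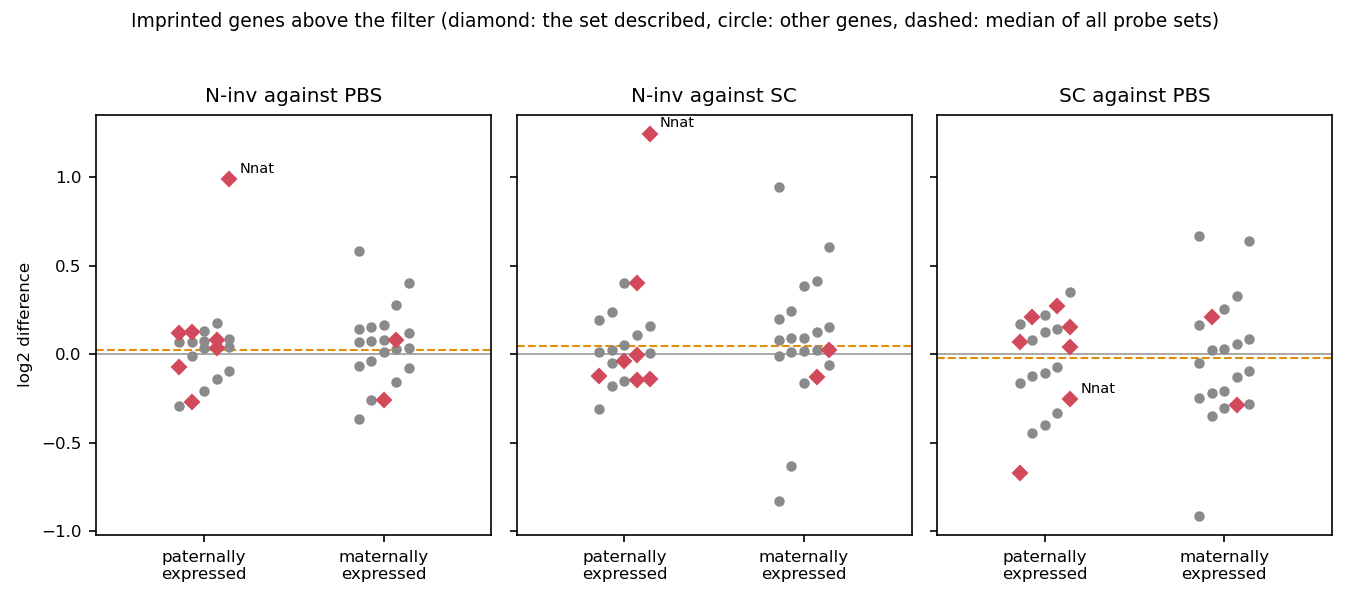
Log2 difference of each tested imprinted gene by its brightest probe set, split by its class as paternally or maternally expressed, in the 3 comparisons. Diamonds are the genes described first, circles other imprinted genes and the dashed line the median of all probe sets. The shared Mir675 and H19 probe set is not drawn. Of the genes drawn, Nnat is the highest point in both N-inv comparisons and lies among the others in SC against PBS.

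Split by parental copy, 13 of 20 paternally expressed genes and 14 of 21 maternally expressed genes were higher in N-inv against PBS, with medians of 0.06 and 0.07. Of the same genes 11 and 15 were higher in N-inv against SC, with medians of 0.0074 and 0.08, and without SC replicate 2 the counts were 15 and 13. For SC against PBS 11 and 10 were higher, with medians of 0.06 and -0.05, and 8 and 8 without SC replicate 2. Nnat, whose N-inv values chose the set, is counted among the paternally expressed genes. The difference between the classes was not tested.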

How the data were processed

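Total RNA of the L1 cord was labelled from 100 ng by two-cycle cRNA labelling for Affymetrix arrays, per the labels' protocols. The authors deposited 1 linear intensity per probe set and array, already scaled, as the equal trimmed means of the arrays show. How probes were summarised was not given in the sources used here. Of 45101 probe sets 64 controls were left out. Each array was scaled to a common median of 256.25 (array medians 241.7 to 279.2), and log2(intensity + 25.625) was taken, which makes fold changes of dim genes too small. Probe sets with a mean above the 40th percentile (155.5) were kept, 27022 in all. One limma model (limma 3.58.1, R 4.3.3; lmFit, then eBayes) covered all 6 arrays, two-sided, with Benjamini-Hochberg adjustment over all probe sets and a threshold of 0.05. It had 3 residual degrees of freedom, and so few arrays limit the precision. Exact permutation of 2 arrays against 2 cannot go below a p of 0.333, so none was run.

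Symbols came from the platform annotation. The brightest probe set stood for a gene. Levels of different probe sets were not compared. Sequences came from RefSeq on GRCm38.p6, where promoter entries of 7 of the 10 genes were read. Entries on chromosome 18, and so any of Impact, were left out of the member search. The members and gene lists were chosen with earlier results of these data known. By rule, all members with every probe set, the neighbours in their clusters, up to 3 genes per list and comparison with the smallest unadjusted p, and the 8 genes most like and 4 most opposite Nnat could be named. Same-numbered arrays did not deviate together (correlations 0.01, 0.04 and -0.03), so the numbers were not used as pairs. Alternatives were other pseudocounts, filters and scalings, only the groups compared, an intensity trend, the replicate block, the mean over a gene's probe sets, and each array left out. Scripts were tested on simulated data.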

Additional observations from a re-analysis of the deposited data

How the results depend on the processing

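Over 36 log2 differences of the genes and 16 other settings, 537 of 567 values kept their direction within the limits used, and none passed the threshold of 0.05. No member was called under any setting. After quantile normalization the N-inv against PBS differences became -0.0057 for Ndn, -0.029 for Meg3 and -0.051 for the shared Snurf and Snrpn probe set, and N-inv against SC became -0.0545 for Cdkn1c, which was -0.027 with the values as deposited. With the mean over a gene's probe sets, N-inv against PBS was -0.037 for Peg3 and -0.038 for Impact, and N-inv against SC was 0.039 for Meg3. Over all probe sets, in place of 0, an intensity trend called 1 in N-inv against PBS and 2 in N-inv against SC, and a fit of only the groups compared called 1 in N-inv against PBS. The cause of these changes was not tested.

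Leaving out each array in turn gave 0 to 1, 0 to 2 and 0 to 10 calls over all probe sets, in the order N-inv with PBS, N-inv with SC, SC with PBS. The 10, the 2 and 1 call in N-inv against PBS came without SC replicate 1, and 1 call in N-inv against PBS without SC replicate 2. A lone array is then assumed to vary like the other groups. In N-inv against PBS the differences ranged from 0.87 to 1.11 for Nnat, -0.031 to 0.20 for Peg3, -0.026 to 0.26 for Ndn, -0.21 to 0.068 for Plagl1 and -0.0585 to 0.13 for Snrpn. In N-inv against SC they ranged from -0.33 to 0.082 for Peg3, -0.15 to 0.082 for Ndn, -0.32 to 0.042 for Plagl1, -0.083 to 0.0725 for Snrpn, -0.43 to 0.48 for Cdkn1c and -0.11 to 0.91 for Igf2. In SC against PBS they ranged from -0.11 to 0.25 for Plagl1, -0.053 to 0.14 for Snrpn, -0.74 to 0.17 for Cdkn1c and -0.95 to 0.32 for the shared Mir675 and H19 probe set. With the replicate number as a block 0 probe sets were called in each comparison, as without it, and same-numbered arrays did not deviate together. The mean over probe sets was not computed for the dimmest Impact probe set, and at the 60th percentile the dimmest Impact and the H19 probe sets were not tested. With 2 arrays a group and signal near the filter, differences of the dim probe sets are the least certain.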
